A study of Mus musculus with 4 samples.

Results

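Expression of 10 miRNA names linked to lipid and energy metabolism was measured in the stromal-vascular fraction (SVF) of visceral white adipose tissue (visWAT), and none of them passed the test of CL-treated against vehicle-treated mice after adjustment over all miRNAs. The 10 members are mmu-miR-33-5p, mmu-miR-103-3p, mmu-miR-107-3p, mmu-miR-26a-5p, mmu-miR-26b-5p and the 5 names of the array that begin with mmu-miR-378 (mmu for mouse, left out from here on), chosen by name from the 1247 mouse miRNAs measured. All 10 were among the 425 miRNAs that entered the test, and of all 425 likewise 0 passed after adjustment. At an unadjusted limma p of 0.05, 34.8% of all tested miRNAs were called, against 1 of the 10 members. That member, miR-33-5p, was higher in CL-treated SVFs by 0.50 on the log2 scale at an unadjusted p only. It entered the test through the CL arrays, where it was high, and its signal lay close to background. The log2 differences of the other 9 members lay between −0.24 and 0.12.

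RNA was taken from visWAT SVFs, the pellet of stromal, vascular and blood-derived cells that remains when floating adipocytes are removed from collagenase-digested fat. Female C57BL/6 mice aged 8 weeks were treated for 3 days with PBS as vehicle or with 1 mg/kg of CL-316243 (CL), an agonist of the β3-adrenergic receptor. The study's methods describe intraperitoneal injection, whereas the labels give a subcutaneous route, and the strain entries of the labels run from C57/BL6 to C57/BL9. Each of the 4 one-colour arrays, 2 per group, carried SVF RNA pooled from 5 mice, and nothing in the sources ties the pools to separate cohorts, so that p-values describe the spread between these pools. The signal is a log2 brightness after quantile normalization, and since every miRNA has its own probes, levels were compared between arrays and never between miRNAs.

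A miRNA inside a protein-coding gene can be cut from the transcript of that gene, so that host and miRNA may share a promoter. Srebf2, the host of miR-33, encodes a transcription factor that switches on cholesterol synthesis, and miR-33 is known to repress the cholesterol exporter Abca1. The Pank genes encode pantothenate kinases, which start the synthesis of coenzyme A, and miR-103 and miR-107 are known as regulators of insulin sensitivity in fat and liver. The Ctdsp genes encode small phosphatases that act on RNA polymerase II, and the miR-26 family is known for effects on adipocyte differentiation. Ppargc1b encodes PGC-1β, a coactivator of mitochondrial genes, and miR-378 is known for effects on mitochondrial metabolism and brown fat. Host transcripts were not measured on these arrays.

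The mature sequences of the families are shown first because the seed, which selects the targets, is shared within a family and the remaining bases are all that a probe can use to tell its members apart. They were read from RefSeq for GRCm38.p6, run 5′ to 3′, and have the seed, bases 2 to 8, in capitals.
miR-33-5p: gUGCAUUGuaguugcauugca
miR-103-3p: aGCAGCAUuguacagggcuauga
miR-107-3p: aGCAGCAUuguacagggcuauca
miR-26a-5p: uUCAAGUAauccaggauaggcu
miR-26b-5p: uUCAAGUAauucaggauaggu
Counted from the 5′ end, miR-103-3p and miR-107-3p differ by the single substitution G22C over 23 bases. miR-26a-5p, of 22 bases, and miR-26b-5p, of 21, differ by C11U and C21U and by the last base of the longer one. No other miRNA of the array with a RefSeq sequence, 1017 of 1247 names, shared a seed with these 5 members.

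The longest probe of each family member shows how those differences were read on the array. Probes are written 5′ to 3′ as DNA, complementary to the miRNA, with capitals for the bases that do not pair with the other member of the family.
miR-103-3p probe: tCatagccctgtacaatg
miR-107-3p probe: tGatagccctgtacaatgct
miR-26a-5p probe: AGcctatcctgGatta
miR-26b-5p probe: AcctatcctgAattacttga
The miR-103-3p probe pairs with miR-107-3p at 17 of its 18 bases, and the miR-107-3p probe pairs with miR-103-3p at 19 of 20. The miR-26a-5p probe pairs with miR-26b-5p at 13 of 16 bases, and the miR-26b-5p probe with miR-26a-5p at 18 of 20. Values within each family may therefore include signal from the other member, which was not tested.

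In GRCm38.p6, the mature miR-33-5p lies at chr15:82198127-82198147 on the plus strand, inside Srebf2 (chr15:82147269-82205379). miR-103-3p has a copy at chr2:131288103-131288125 inside Pank2 and another at chr11:35782447-35782469 inside Pank3, and miR-107-3p lies at chr19:34820700-34820722 on the minus strand inside Pank1. miR-26a-5p has copies at chr9:119031811-119031832 inside Ctdspl and at chr10:126995543-126995564 inside Ctdsp2, and miR-26b-5p lies at chr1:74394324-74394344 inside Ctdsp1. Each of these 7 hairpins is on the strand of its host, and the mature sequences of genes with a pair of copies are identical, so that the array cannot assign their signal to a host. Whether a hairpin lies in an intron or an exon was not analysed here. Of the miR-378 names, only those of Mir378a belong to Ppargc1b. Mir378b lies inside Msi2 and Mir378c inside Samd4, both on the opposite strand, and Mir378d lies in no protein-coding gene of the annotation.

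On the single slide used, vehicle occupied row 1 and CL row 2, and hence treatment and slide row cannot be told apart. The scanner software detected 386 to 431 miRNAs per array, negative control spots averaged 31.7 to 38.6 units, and no spot was saturated. Of the marker miRNAs, both endothelial names were lower with CL (unadjusted limma p). The log2 of their summed linear signals was 13.79 to 13.92 in vehicle and 12.32 to 12.65 in CL. The sums that follow are of the same kind, and each is weighted toward the brightest name of its list. Among 5 names listed for fibroblasts, miR-199a-3p, miR-199a-5p and miR-214-3p were higher, miR-145a-5p was lower and miR-143-3p, also with a negative fold change, was not called. Their sums were 10.86 to 11.35 in vehicle and 11.88 to 11.95 in CL. Among 4 leukocyte names 2 were higher and 1 lower, with sums of 10.75 to 11.16 and 11.69 to 11.73, and both measured red cell names were higher, with sums of 12.99 to 13.21 and 13.79 to 14.03. Of the 5 epithelial names 4, and the liver marker miR-122-5p, were detected on no array. The 3 muscle names were detected on all arrays with no call, and of the 2 neuron names miR-9-5p was detected on none whereas miR-124-3p was detected on all and was lower with CL. The part of these cell types in the values of the 10 members was not tested, and fewer cells of a type and less RNA per cell cannot be told apart in such samples.

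miR-33-5p, the partner of the cholesterol regulator Srebf2, had log2 signals of 4.29 and 4.02 on the vehicle arrays and of 4.64 and 4.67 on the CL arrays. Both CL arrays lay above both vehicle arrays. Groups that do not overlap were found for 72.9% of the 425 tested miRNAs and for 6 of the 10 members, and such groups with CL higher for 38.1% of all and for miR-33-5p alone among the members. The vehicle mean was 4.15 ± 0.19 and the CL mean 4.65 ± 0.02 (SD, n = 2 each). The log2 fold change was 0.50 (SE 0.15, 95% confidence interval 0.11 to 0.89), a 1.41-fold difference (1.08 to 1.85), with an unadjusted p of 0.0227 in limma's moderated test. The p adjusted by the Benjamini-Hochberg method over all tested miRNAs was 0.113 in the same limma fit. It was 0.0116 to 0.642 over the alternatives of processing and left-out arrays. The lowest value came from the fit without the first vehicle array, in which vehicle is the 1 array where miR-33-5p was not detected and 230 of all 425 miRNAs passed. In every fit without an array, the lone array of its group is assumed to vary like the pair of the other group. At an unadjusted p of 0.05, limma called 34.8% of all tested miRNAs and 18.6% as higher with CL, against 1 of the 10 members. At an adjusted p of 0.05 it called 0 of 425, so that a percentage of 0 stands behind the 0 of 10 members. A limma fit blocked on the replicate number, which follows the slide column, called 9.41% of all tested miRNAs at an adjusted p (3.53% higher, 5.88% lower) and again 0 of the 10 members.

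The spots of miR-33-5p show how near this signal was to the floor. Its 21-base probe, tgcaatgcaactacaatgcac, was printed in 20 spots per array, with median raw signals of 46.3 and 31.8 on the vehicle arrays and of 52.3 and 47.7 on the CL arrays. Negative control spots averaged 37.1, 31.7, 38.6 and 32.8 on the same arrays. The second vehicle array thus read at background, and the first vehicle array read between it and the CL arrays. Of the 20 spots, 2 and 0 were well above background in vehicle and 6 and 10 in CL, and the 20-base probe had none on any array. The software, whose total for this miRNA exceeded the sum over these probes, detected miR-33-5p on both CL arrays and on the first vehicle array only. It entered the test through the CL arrays, and its fold change is measured against a group with 1 undetected array. Averaged over the arrays of a group, all 20 spots of the longer probe and 18 of 20 of the shorter one were brighter with CL, and for 28.7% of tested miRNAs every spot of the longest probe was brighter.

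**Figure D1:**
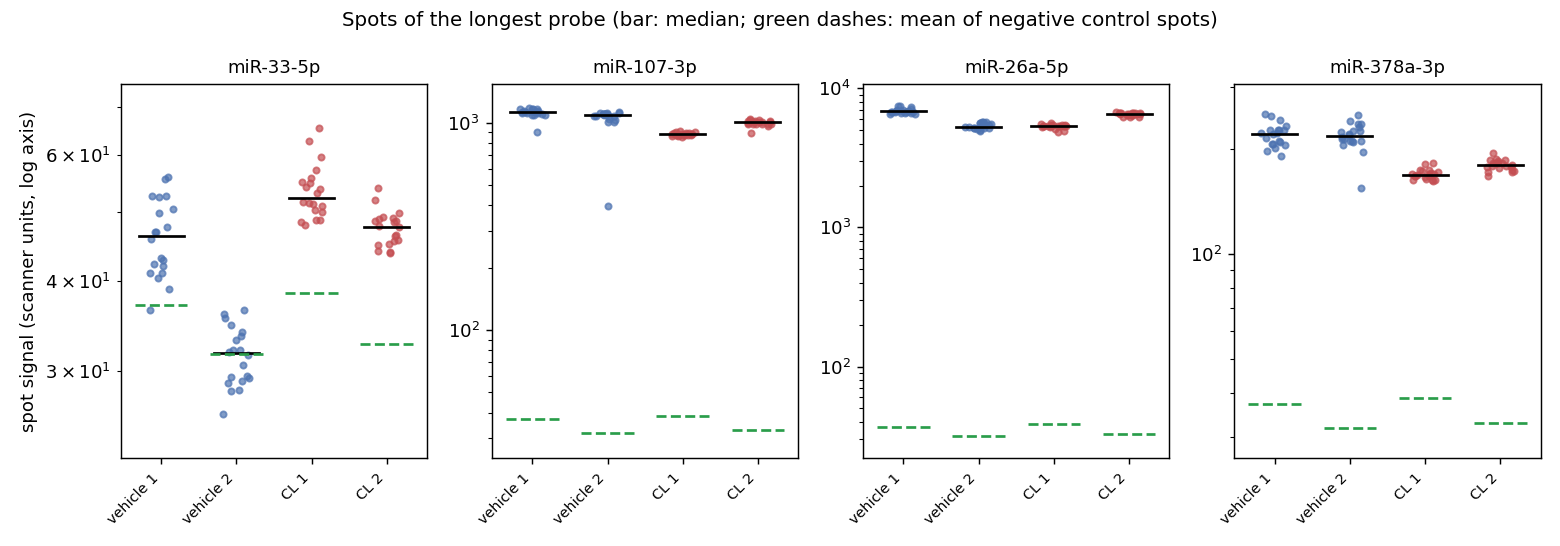
Raw signals of the spots of the longest probe on the 4 arrays for a member of each family, in scanner units on a log axis that differs between panels, with black bars for medians and green dashes for the mean of the negative control spots. The spots of miR-33-5p lie near the green dashes, with a median of 31.8 against 31.7 on the second vehicle array, whereas those of miR-107-3p, miR-26a-5p and miR-378a-3p lie well above them.

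Alternatives of the filter or the test alone leave a fold change as it is. Under the others the size of the miR-33-5p difference moved, although it stayed positive throughout. It was 0.16 with local background and an offset, 0.27 when arrays were scaled to the 75th percentile of detected probes, 0.71 with the longest probe only and 5.17 in the deposited log2 table, where the second vehicle array holds the lowest value of its array. Across the 425 miRNAs, log2 fold changes were higher for miRNAs with longer probes (Spearman's rho 0.468 for the longest one) and lower for those rich in C (rho −0.432), a description over probes that share the same 4 arrays. With the linear trend of each array on probe length and base composition removed, the log2 fold change of miR-33-5p was 0.18, with an unadjusted limma p of 0.170. Without the first or the second CL array the log2 fold change hardly moved, at 0.51 and 0.49, and the limma p of 0.189 and 0.213 took its spread from the wider pair of vehicle arrays.

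miR-103-3p, shared by the coenzyme A genes Pank2 and Pank3, had log2 signals of 9.71 and 9.95 in vehicle and of 9.78 and 9.79 in CL. The CL arrays lay between the vehicle arrays, with a log2 fold change of −0.04 (SE 0.14, 95% interval −0.41 to 0.32) and an adjusted limma p of 0.829. miR-107-3p, from Pank1, had log2 signals of 9.10 and 9.15 in vehicle and of 9.04 and 9.07 in CL. Both CL readings were under both vehicle readings by a small margin, with a log2 fold change of −0.07 (SE 0.11, interval −0.38 to 0.23) and an adjusted limma p of 0.670. The interval for miR-107-3p holds folds from 0.769 to 1.17. Averaged over the raw signals of the arrays of a group, every spot of the longest miR-103-3p probe was dimmer with CL. The same held for 19 of 20 spots of the longest miR-107-3p probe. On such averages, 35.1% of tested miRNAs showed this direction in every spot. The miR-103-3p medians were 1477 and 1441 in vehicle, and 1204 and 1382 in CL. After scaling to the 75th percentile of all probes, the log2 fold changes of the pair were 0.17 and 0.09, and the median over all tested miRNAs was then 0.32, so that both stayed below that median.

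miR-26a-5p, with copies in Ctdspl and Ctdsp2, had log2 signals of 12.15 and 11.90 in vehicle and of 12.16 and 12.13 in CL. The first vehicle array lay within the CL range and only the second lay below, with a log2 fold change of 0.12 (SE 0.14, interval −0.26 to 0.50) and an adjusted limma p of 0.578. miR-26b-5p, from Ctdsp1, had log2 signals of 10.36 and 10.08 in vehicle and of 10.18 and 10.42 in CL. The groups overlapped, and the replicates of a group differed by more than the group means, at a log2 fold change of 0.08 (SE 0.17, interval −0.37 to 0.52) and an adjusted limma p of 0.759. The sign was not fixed for either gene. Without normalization between arrays the log2 fold changes were −0.02 for miR-26a-5p and −0.08 for miR-26b-5p. The median over all tested miRNAs was then −0.12, so that both stayed above that median. Without the second vehicle array the log2 fold changes of the pair were −0.01 and −0.06. Without the first vehicle array the log2 fold change of miR-26a-5p was 0.24, in a fit that took its spread from the close pair of CL arrays and called 263 of all 425 miRNAs at an unadjusted limma p of 0.05.

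**Figure D2:**
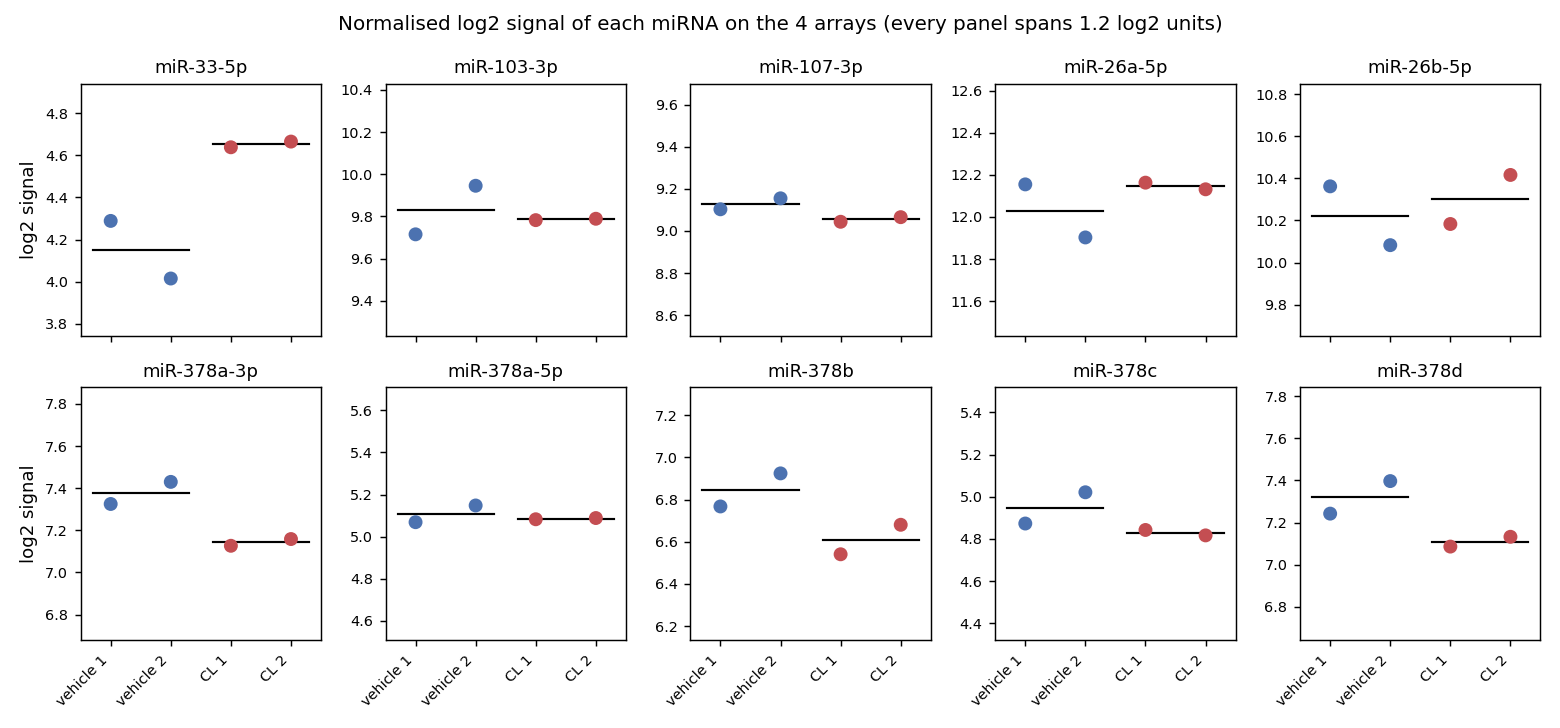
Normalised log2 signal of each of the 10 members on the 2 vehicle and 2 CL arrays, with black bars for group means; every panel spans 1.2 log2 units around its own level. For miR-33-5p both CL arrays lie above the vehicle arrays, for miR-107-3p, miR-378a-3p, miR-378b, miR-378c and miR-378d both lie below, and for the other 4 members the groups overlap.

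miR-378a-3p, from the 3p arm of the hairpin in Ppargc1b, had log2 signals of 7.32 and 7.43 in vehicle and of 7.13 and 7.16 in CL. Both CL arrays were lower, and the log2 fold change was −0.23 (SE 0.12, interval −0.55 to 0.08), with an unadjusted limma p of 0.112 and an adjusted p of 0.217. miR-378a-5p, from the opposite arm of the same hairpin, had log2 signals of 5.07 and 5.15 in vehicle and of 5.08 and 5.09 in CL. The CL arrays lay between the vehicle arrays, at a log2 fold change of −0.02 (SE 0.12, interval −0.33 to 0.29) and an adjusted limma p of 0.885. A difference between the arms was not tested. Of the 20 spots of the longest miR-378a-5p probe, 9 and 18 were well above background on the CL arrays and all 20 on each vehicle array.

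miR-378b had log2 signals of 6.77 and 6.92 in vehicle and of 6.54 and 6.68 in CL, and miR-378d of 7.24 and 7.40 in vehicle and of 7.09 and 7.13 in CL. For each, both CL readings were under both vehicle readings, with log2 fold changes of −0.24 (SE 0.13) and −0.21 (SE 0.12) and adjusted limma p-values of 0.257 and 0.276. miR-378c, at 4.87 and 5.02 in vehicle and 4.84 and 4.82 in CL, was also separate. Its log2 fold change was −0.12 (SE 0.12), with an adjusted limma p of 0.514. After scaling to the 75th percentile of all probes it turned to 0.10, below the median of 0.32 over all tested miRNAs. Groups separated in the lower direction for 34.8% of all tested miRNAs and for 5 of the 10 members, of which 4 are these miR-378 names.

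The miR-378 names are not independent readings. The longest probes of miR-378a-3p, miR-378b, miR-378c and miR-378d, of 14 to 17 bases, share a stretch of 13 bases, and how much of each signal comes from which of these RNAs was not tested. Their centred log2 profiles over the 4 arrays differed by a root mean square of 0.02 between miR-378a-3p and miR-378d. Between miR-378a-3p and miR-378b the value was 0.04, and between miR-378c and the other names 0.05 to 0.08. Profiles outside the family were as close, with miR-345-3p 0.02 from miR-378a-3p and miR-6368 0.01 from miR-378b. In the raw signals averaged over the arrays of a group, all 20 spots were dimmer with CL for both probes of miR-378a-3p, miR-378b and miR-378d. On the same averages, every spot of the longest probe was dimmer for 35.1% of all tested miRNAs, and the share with both probes was not counted. Spots of a probe are copies on the same 4 arrays. With local background and an offset, miR-378a-3p (−0.18) passed an unadjusted limma p of 0.05, as did 121 of all 425 miRNAs. It also passed without the filter, as did 210 of 1247. The log2 fold changes of miR-378a-3p, miR-378b and miR-378d stayed negative under all 23 alternatives, between −0.43 and −0.02, and no adjusted p fell under 0.05. Alternatives that changed only the filter or the test left the fold change as it was, so that its sign was fixed beforehand. Removing the trend on probe length and base composition brought miR-378a-3p, which has the shortest and most C-rich longest probe of the members, to −0.02, and left miR-378b at −0.26 and miR-378d at −0.21. Without the first vehicle array the log2 fold changes of miR-378a-3p and miR-378d were −0.29 each, past an unadjusted limma p of 0.05 as were 263 of all 425 miRNAs in that fit, where vehicle is a lone array.

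**Figure D3:**
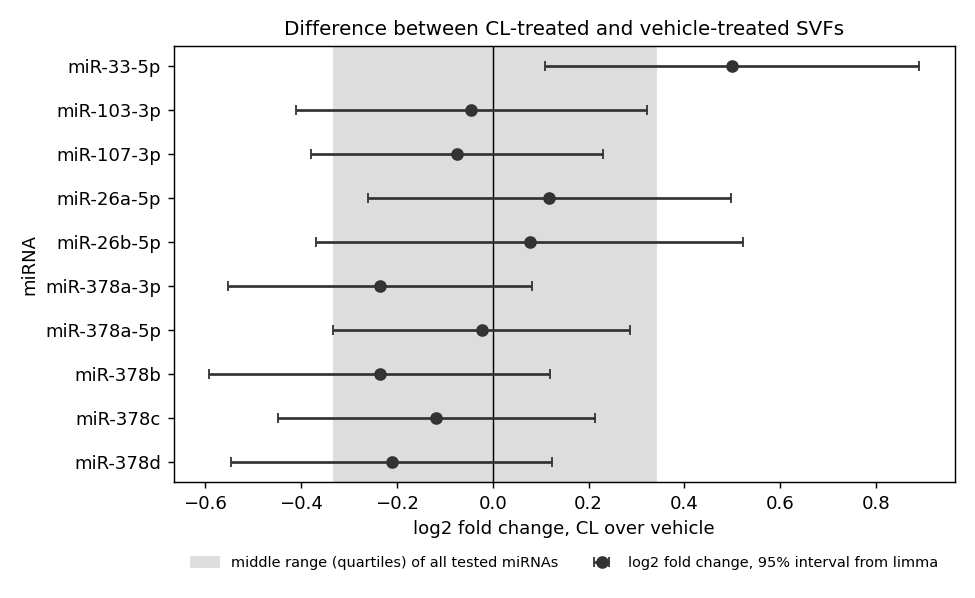
Log2 fold change of CL over vehicle for the 10 members with 95% confidence intervals from limma, beside a grey band for the quartiles of all 425 tested miRNAs, −0.33 to 0.34. The interval of miR-33-5p lies above 0 and those of the other 9 members cross it.

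Among all tested miRNAs the median log2 fold change was −0.01 and the extremes were −3.08 and 2.97, and among the 10 members the median was −0.06, with 3 positive and 7 negative. Replicates of the same treatment set the scale for these values. The second vehicle array differed from the first by −0.28 to 0.23 for the members, and the second CL array from the first by −0.03 to 0.23. With the exception of miR-33-5p, no fold change of a member exceeded in size the largest difference of any member between the vehicle arrays. Against the vehicle difference of the same miRNA, log2 fold changes were −0.23 against 0.10 for miR-378a-3p and −0.24 against 0.16 for miR-378b. They were −0.21 against 0.15 for miR-378d and −0.07 against 0.05 for miR-107-3p, and miR-33-5p also exceeded its own. For the remaining members the vehicle difference was larger in size. The smallest two-sided p of an exact permutation test on groups of 2 is 0.333, so that single values rest on limma's pooled spread.

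**Figure D4:**
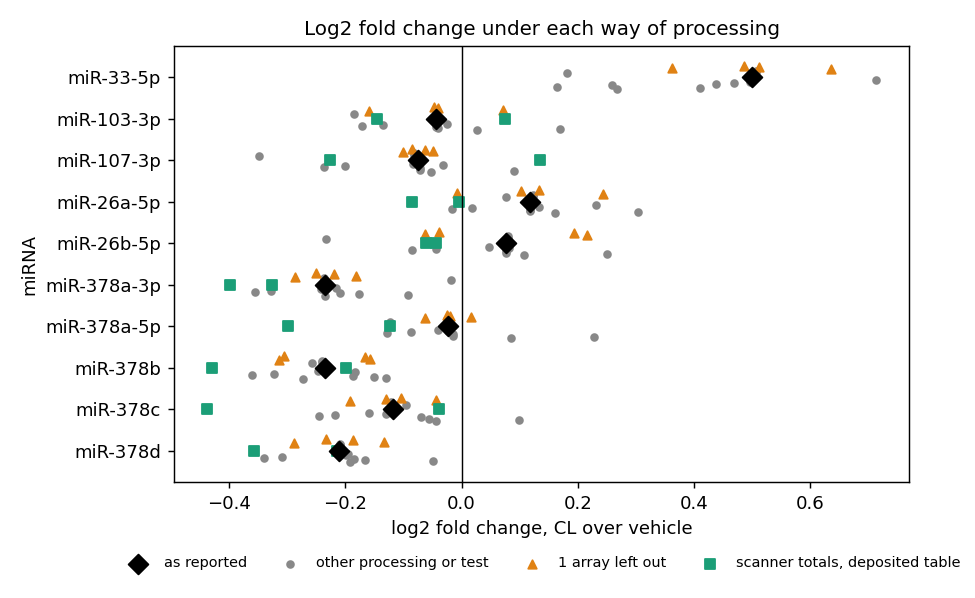
Log2 fold change of each member under every way of processing, with black diamonds for the values as reported, grey points for other processing or tests, orange triangles for fits without 1 array and green squares for the scanner totals and the deposited table. The scanner total and deposited value of miR-33-5p, 2.11 and 5.17, lie beyond the axis; all points of miR-33-5p are positive, those of miR-378a-3p, miR-378b and miR-378d are negative, and those of the other 6 members fall on both sides of 0.

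The other arms of the hairpins gave no signal above detection. miR-33-3p, miR-103-1-5p, miR-107-5p, miR-26a-1-3p, miR-26a-2-3p and miR-26b-3p were each detected on 0 of 4 arrays, and no fold is given for them.

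Other miRNAs that lie inside protein-coding genes were examined for comparison, from a list of 62 arms in 24 host genes, of which 60 were on the array and 39 were tested. A position inside the listed host was found in RefSeq for 54 of the 62, and the hosts of the other 8, among them miR-126-3p, are as listed and were not checked here. At an unadjusted limma p of 0.05, 4 were higher with CL, 7 were lower and 28 were not called, against 18.6% higher and 16.2% lower among all tested miRNAs, with a median log2 fold change of 0.10. Of the 3 with the largest fold changes, miR-126-3p, listed under the endothelial gene Egfl7, had log2 signals of 13.90 and 13.78 in vehicle and of 12.30 and 12.63 in CL, a log2 fold change of −1.37 (SE 0.16, adjusted limma p 0.0909). miR-139-5p, from the phosphodiesterase gene Pde2a, had a log2 fold change of −1.26 (SE 0.21) at the same adjusted p. miR-362-3p, from the chloride transporter gene Clcn5, read 7.32 and 5.94 in vehicle and 7.89 and 7.79 in CL, a log2 fold change of 1.21 (SE 0.48) that did not pass an unadjusted p of 0.05.

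Cholesterol and lipid handling was also followed through 18 other miRNAs with known targets there, 12 of which were tested. At the unadjusted threshold 5 of the 12 were higher with CL, 2 were lower and 5 were not called, beside the same 18.6% and 16.2% of all tested miRNAs, with a median log2 fold change of 0.29. miR-144-3p, which is known both as a repressor of Abca1 and as a red cell miRNA, read 7.76 and 6.41 in vehicle and 10.32 and 9.79 in CL, a log2 fold change of 2.97 (SE 0.50, adjusted limma p 0.0909). miR-10b-5p read 10.29 and 10.69 in vehicle and 9.02 and 9.34 in CL, a log2 fold change of −1.31 (SE 0.21). miR-148a-3p, known to repress the low-density lipoprotein receptor, read 8.72 and 7.82 in vehicle and 9.37 and 9.42 in CL, a log2 fold change of 1.12 (SE 0.32, adjusted limma p 0.113).

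The tested miRNAs whose profile over the 4 arrays lay closest to a member were found by the root mean square difference of centred log2 signals. For miR-33-5p they were miR-337-5p, miR-541-5p and miR-376b-5p, at 0.01 to 0.02, and for miR-103-3p they were miR-874-3p, miR-6402 and miR-3058-3p, each at 0.02. For miR-107-3p they were miR-763, miR-669f-3p and miR-6352, and for miR-26a-5p miR-28c, miR-674-3p and miR-22-5p. miR-26b-5p lay closest to miR-214-5p, miR-98-5p and miR-340-3p, miR-378a-5p to miR-28a-3p, miR-125a-5p and miR-5109, and miR-378c to miR-1186a, miR-664-5p and miR-874-3p. The neighbours of miR-378a-3p were miR-345-3p, miR-450b-3p and let-7e-5p, those of miR-378b were miR-6368, let-7e-5p and miR-193b-5p, and those of miR-378d were miR-345-3p, miR-450b-3p and miR-6368. Within families, miR-103-3p and miR-107-3p differed by 0.07 and miR-26a-5p and miR-26b-5p by 0.10, and each had closer profiles outside its family. That outcome was likely beforehand, since a single partner was set against the closest of all other tested miRNAs. With 4 arrays such closeness is a description of these libraries only.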

How the data were processed

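The authors deposited scanner files of Feature Extraction 10.7.1.1 with the linear intensity of each spot, and a table of log2 values in which undetected miRNAs hold the lowest value of their array. Robust multi-array analysis and SAM are named in their methods. Starting from the deposited intensity of each spot, mean signals were background-corrected by normexp (no local background, no offset) with limma 3.58.1, run in R 4.3.3. Control and outlier-flagged spots were removed, followed by quantile normalization between arrays and a median polish of log2 values (stopping rule 0.01, at most 10 rounds). Testing required detection on both arrays of 1 group or more. Groups were compared by lmFit and eBayes with two-sided p-values, adjusted by Benjamini-Hochberg over 425 miRNAs at 0.05, after checks on simulated arrays. Alternatives were other scalings, background corrections, summaries, filters and tests, a replicate block, removal of a linear trend on probe length and base composition, and leaving out each array. Precision is limited by the 2 arrays per group. The members and lists were chosen with earlier results of these data known. All members are named, with the 3 largest changes of each list and the 3 nearest profiles of each member. Mature sequences were matched by name to RefSeq (8 of 10 members). The mRNA arrays and other experiments of the study were not analysed here.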

Additional observations from a re-analysis of the deposited data

How the results depend on the processing

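The 10 members gave 229 fold changes over 23 alternatives. Of these, 192 kept their direction and their side of an unadjusted p of 0.05. Another 11 (all of miR-33-5p) lost the call, 5 gained one and 21 changed sign. Settings that changed only the filter or the test could not change a sign. The number of all miRNAs past an adjusted p of 0.05 was 0 as reported, 65 and 114 after scaling to the 75th percentile of detected or of all probes, 64 when arrays were not normalized to each other, 44 with median centring, 31 from scanner totals, 7 in the deposited table, 2 with an intensity trend and 51 with the trend on the probe removed. Called miRNAs at an unadjusted p numbered 148, and 91 with median centring, 60 by SAM and 52 by the methods' t-test. Leaving out 1 array gave 1 to 230 adjusted and 61 to 263 unadjusted calls, with the highest counts without the first vehicle array, where the lone vehicle array is assumed to vary like the pair of CL arrays. Members past an unadjusted p numbered 1 (miR-33-5p) as reported, and 2 without the filter, where miR-378a-3p was also called. With local background and an offset the 1 member was miR-378a-3p, lower with CL, in place of miR-33-5p. The number was 0 under both percentile scalings, no normalization, median centring, scanner totals, detection on all arrays, SAM, the methods' t-test and the trend removed. Leaving out 1 array gave 0 to 4. Percentile scaling raised the median fold change of all miRNAs by 0.18 over detected and 0.33 over all probes, and no normalization and scanner totals lowered it (shifts of −0.11 each), and 52.3% and 70.2% of adjusted calls were then higher under the scalings against 26.6% and 32.3%.

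The replicate number as a block, which is also the column of the slide, gave 40 adjusted calls (9.41%), none of them a member, with 15 higher and 25 lower. Arrays of the same number deviated together with a correlation of 0.121, and no label states a pairing. With the median polish run to convergence, an alternative chosen after seeing the data, the block gave 109.

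miR-103-3p changed sign under percentile scaling (0.027 and 0.17), in the deposited table (0.0752) and without the second vehicle array (range −0.16 to 0.0707 over arrays left out), and miR-107-3p with all probes (0.0896) and in the deposited table (0.135). miR-26a-5p did so without normalization (−0.0171), from scanner totals (−0.0036), in the deposited table (−0.0859) and without the second vehicle array (range −0.0075 to 0.244). miR-26b-5p did so without normalization (−0.0848), with median centring (−0.0446), from scanner totals (−0.0608), in the deposited table (−0.0443), with the trend removed (−0.234) and without the second vehicle or the second CL array (range −0.0623 to 0.217). miR-378a-5p did so under percentile scaling (0.0856 and 0.229) and without the second vehicle array (range −0.0625 to 0.0168), and miR-378c with all probes (0.0987). The causes were not tested. With 2 arrays per group and signals near background, small changes of miR-33-5p, miR-378a-5p and miR-378c were not detectable.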

Other observations

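For miR-33-5p and miR-378c, the total that the scanner software gave per miRNA was larger than the sum over the probes listed under that name. The totals of miR-33-5p were 65.6 and 1.82 in vehicle and 61.8 and 78.0 in CL, against sums of 4.51, 0.423, 7.34 and 7.44 over its own probes. For miR-378c the totals were 112, 117, 75.6 and 91.9, against sums of 13.6, 14.01, 8.35 and 9.62. For the other 8 members the totals and sums were equal when rounded to whole units. In the deposited log2 table, miR-33-5p stood at −1.39 and at the lowest value of the array in vehicle and at 2.89 and 2.76 in CL, which gave the fold change of 5.17 with an adjusted limma p of 0.128. The table carried no adjusted call for a member.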
